A study of Mus musculus with 20 samples.

Results

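The genes described here are 46 genes of the cell cycle and of DNA replication, chosen by symbol from a list of names, and all 46 were found among the 24762 genes of the joined count table. They fall into 9 genes of replication licensing and origin firing, 5 genes of nucleotide supply and the replication fork, 7 G1 cyclins and transcription factors, and 25 genes of mitosis. All 46 also passed the filter on low counts, which left 15549 genes for testing. RNA came from whole kidneys of male mice on a C57BL/6J background, removed after 4 days of hormone replacement that followed orchidectomy, the removal of the testes. The groups were ARLmon/Y mice given testosterone, ARLmon/Y mice given vehicle, wild type mice given testosterone and wild type mice given vehicle, with 5 libraries in each, so every animal was without testes and the vehicle groups lacked testicular androgen. ARLmon is a germline allele of the X-linked androgen receptor gene that impairs dimerisation of the receptor's ligand-binding domain, and ARLmon/Y males carry no other copy. Ages were not given in the sources used here.

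A dividing cell passes through G1, in which D-type cyclins with their kinases release E2F transcription factors from the retinoblastoma protein. E2F factors then switch on the genes that prepare for DNA synthesis. Origins are licensed when Cdc6 and Cdt1 load the helicase made of the Mcm2 to Mcm7 subunits, and the GINS complex, with Gins2, helps to fire it. Ribonucleotide reductase (Rrm1 and Rrm2), thymidylate synthase (Tyms) and thymidine kinase (Tk1) supply nucleotides, and Pcna is the sliding clamp of the fork. Later in the cycle Cdk1 with the A and B cyclins, the Aurora and Polo kinases, kinesins and kinetochore proteins carry out mitosis, and the ubiquitin ligase APC/C with Cdc20 and Ube2c ends it. Many genes of this late set are held down in resting cells by the DREAM complex, which binds a promoter element called CHR, often beside CCAAT boxes. Few cells divide in an adult kidney, so such transcripts are scarce in whole-kidney RNA.

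Depth ran from 8342000 to 38101526 assigned reads per library, and 18781 to 21719 genes were detected. Wild type testosterone libraries held 8342000 to 15422018 reads, and wild type vehicle libraries 8618311 to 38101526. ARLmon libraries held 10236738 to 18609328 reads with testosterone and 11569255 to 16881304 with vehicle. TMM scaling factors were 0.869 to 0.936 in wild type testosterone libraries, below those of all others (0.963 to 1.1). The part of depth in the results was not tested. The testosterone-induced kidney genes Odc1 and Kap check the treatment labels in wild type only, since neither was called for testosterone in ARLmon. Odc1 averaged 188 CPM in ARLmon testosterone, 202 in ARLmon vehicle, 1509.7 in wild type testosterone and 206 in wild type vehicle libraries, where CPM is the read count relative to the TMM-adjusted library size. Kap averaged 6450 CPM in ARLmon testosterone, 8184 in ARLmon vehicle, 39464 in wild type testosterone and 14797 in wild type vehicle libraries. The ARLmon allele changes the protein, so the level of its RNA does not check the genotype labels. The proximal tubule transporter gene Slc34a1 averaged 5126 CPM in ARLmon testosterone, 5025 in ARLmon vehicle, 6363 in wild type testosterone and 5637 in wild type vehicle libraries, so kidney tubule RNA was present in every group. No source used here gives the strand option of the read counting, so reads of genes that overlap on opposite strands cannot be told apart. The labels do not say that each library came from its own animal, so p-values measure the spread between these samples, which may be technical.

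Promoters of 5 genes are shown first because the results below turn on them: Mcm6, Nusap1 and Tk1 were higher in wild type testosterone libraries, and Cdk1 and Ube2c were lower there. The sequences are RefSeq promoter windows on GRCm38.p6, from 250 bases before the start of the gene to 50 after it, 5′ to 3′ on the gene's strand. Capitals mark E2F motifs (TTTCGCGC, TTTGGCGC or TTTCCCGC), CHR motifs (TTTGAA or TTCGAA) and CCAAT boxes (CCAAT), each searched on both strands. Mcm6 (chr1:128359656-128359955, minus strand) has E2F matches whose leftmost bases lie at -110, -106 and -47, the first pair overlapping, and CCAAT matches at -57 and -14, with the start base counted as 0. Cdk1 (chr10:69352863-69353162, minus strand) has an E2F match at -131, CHR matches at -71 and -15 and CCAAT matches at -208, -80 and -48. Ube2c (chr2:164769679-164769978, plus strand) has a CHR match at -29 and CCAAT matches at -228, -186, -183, -155, -88 and -57, of which those at -186 and -183 overlap. Nusap1 (chr2:119618048-119618347, plus strand) and Tk1 (chr11:117825965-117826264, minus strand) have none of these letters in this window.
Mcm6: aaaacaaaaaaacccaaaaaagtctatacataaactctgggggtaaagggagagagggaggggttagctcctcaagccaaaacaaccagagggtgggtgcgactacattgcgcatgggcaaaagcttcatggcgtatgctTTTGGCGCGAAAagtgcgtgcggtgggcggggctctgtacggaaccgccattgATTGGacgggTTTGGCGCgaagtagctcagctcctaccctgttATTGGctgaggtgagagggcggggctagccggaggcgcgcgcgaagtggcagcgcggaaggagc
Cdk1: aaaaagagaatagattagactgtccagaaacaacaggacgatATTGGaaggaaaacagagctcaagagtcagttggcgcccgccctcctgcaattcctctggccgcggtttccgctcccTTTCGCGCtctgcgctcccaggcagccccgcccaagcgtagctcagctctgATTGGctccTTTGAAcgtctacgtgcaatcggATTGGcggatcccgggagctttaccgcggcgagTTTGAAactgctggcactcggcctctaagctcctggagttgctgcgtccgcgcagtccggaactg
Ube2c: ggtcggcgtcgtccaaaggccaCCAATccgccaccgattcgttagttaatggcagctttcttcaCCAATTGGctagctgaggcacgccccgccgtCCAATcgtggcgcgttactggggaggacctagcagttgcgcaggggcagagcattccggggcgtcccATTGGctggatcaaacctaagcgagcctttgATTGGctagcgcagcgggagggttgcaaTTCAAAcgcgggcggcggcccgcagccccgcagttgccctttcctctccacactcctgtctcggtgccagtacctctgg
Nusap1: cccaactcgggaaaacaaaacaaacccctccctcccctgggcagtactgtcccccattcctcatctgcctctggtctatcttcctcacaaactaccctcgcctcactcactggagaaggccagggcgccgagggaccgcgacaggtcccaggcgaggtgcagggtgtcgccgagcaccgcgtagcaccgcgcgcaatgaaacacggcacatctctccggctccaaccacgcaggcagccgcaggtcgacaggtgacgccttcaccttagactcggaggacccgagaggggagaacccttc
Tk1: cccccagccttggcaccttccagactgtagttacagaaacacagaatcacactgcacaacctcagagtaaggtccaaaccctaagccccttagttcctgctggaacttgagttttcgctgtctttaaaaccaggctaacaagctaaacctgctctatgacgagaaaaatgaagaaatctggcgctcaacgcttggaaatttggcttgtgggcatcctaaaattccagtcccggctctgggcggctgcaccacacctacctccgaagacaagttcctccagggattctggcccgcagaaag

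Windows were found for 36 of the 46 genes. None was matched for Aurkb, Ccna2, Ccnd1, Ccnd2, Ccne2, Foxm1, Gins2, Kif20a, Mcm4 and Tpx2. An E2F motif stood in the windows of 7 of the 36 genes (19.4%), against 2.12% of all 27025 genes with a window, and 6 of those 7 genes belong to replication licensing (Cdc6, Cdt1, Mcm3, Mcm5, Mcm6 and Mcm7). The other one is Cdk1. A CHR motif stood in 19 of 36 (52.8%), against 21.7% of all genes with a window: in 17 of 21 mitosis genes, 2 of 7 licensing genes and none of the other 8 genes with a window. CCAAT boxes stood in 28 of 36 (77.8%), against 41.1% of all genes with a window, including 19 of 21 mitosis genes. A match describes letters and is not a binding site. E2F matches, not all of the same letters, stood in the window of Mcm6, which was higher in wild type testosterone libraries. They also stood in those of Mcm3, Mcm5, Mcm7, Cdc6 and Cdt1, which did not pass the test there. The part of these letters in the levels was not tested.

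Per kilobase of exons, Ccnd1 was the most abundant of these transcripts. Ccnd1 averaged 44.4 CPM per kb in ARLmon testosterone, 44.1 in ARLmon vehicle, 41.3 in wild type testosterone and 54.8 in wild type vehicle libraries, and Ccnd3 averaged 11.02 CPM per kb in ARLmon testosterone, 12.3 in ARLmon vehicle, 8.302 in wild type testosterone and 9.67 in wild type vehicle libraries. Pcna stood close to Ccnd3, with 9.35 CPM per kb in ARLmon testosterone, 9.57 in ARLmon vehicle, 8.597 in wild type testosterone and 9.25 in wild type vehicle libraries. Ccnd1 shares 23.4% of its exonic bases with LTO1 on the opposite strand. Pcna-ps2 matches 51.4% of the Pcna transcript at 99.2% identity, and Ccnd3-ps matches 41.7% of that of Ccnd3 at 96.3%. Both are processed pseudogenes counted as genes of their own, so reads of Pcna and Ccnd3 could be split. Group means of licensing genes spanned 0.102 (Cdc6) to 7.34 CPM per kb (Mcm6 in wild type testosterone libraries). Mitosis genes lay lowest as a class, with group means between 0.0750 (Ccnb1 in wild type testosterone) and 1.63 CPM per kb (Ccnb2 in ARLmon testosterone). The 25 mitosis genes together held 326 to 755 reads per library in the wild type testosterone group, so single genes there rest on few reads. Ccnb1 had 15 reads and Ube2c 25 over the 5 libraries.

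Testosterone given to wild type mice was accompanied by a fall of several mitosis and nucleotide genes and by a rise of Mcm6, Nusap1 and Tk1. Of the 46 genes, 3 rose and 9 fell (26.1% called), against 15.7% of all tested genes, of which 9.36% rose and 6.36% fell. With library size as the only scaling, which moved the all-gene median by more than 0.1, 2 of the 46 rose and 19 fell. The share of all tested genes called under that scaling is not given here. A gene was called when the Benjamini-Hochberg adjusted p of edgeR's quasi-likelihood test, adjusted over all 15549 genes, was below 0.05. The median log2 difference of the 46 genes was -0.37, against -0.03 over all tested genes. With ARLmon mice the same contrast called 0 of 46 genes by edgeR, limma-voom and DESeq2, against 0% of all tested genes called by edgeR. Unadjusted, 0 of 46 had an edgeR p under 0.05, against 813 of all 15549 genes. The median over the 46 genes was 0.04. Whole kidney mixes many cell types, so fewer cells of a type and less RNA per cell cannot be told apart in any of these values.

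ARLmon libraries differed from wild type libraries mainly under testosterone. There 18 of the 46 genes were higher and 3 lower in ARLmon (45.7% called), against 31.1% of all tested genes, of which 15.6% were higher and 15.5% lower. The median over the 46 genes was 0.51, against 0.04 over all tested genes. Under vehicle 1 gene, Ube2c, was higher, against 4.37% of all tested genes called. The contrast of genotypes under testosterone and the testosterone response of wild type share the 5 wild type testosterone libraries, so the 2 sets of values are not independent. The difference between the testosterone responses of the genotypes, tested as an interaction, was called for 2 genes, Kif20a and Mcm6, against 4.77% of all tested genes (1.42% in the direction of Kif20a and 3.34% in that of Mcm6). With library size as the only scaling 10 were called, all in the direction of Kif20a. DESeq2 called 6 genes for that interaction (Kif20a, Ccnb2, Cenpf, Mki67, Rrm1 and Mcm6). The share of all tested genes called under either of these settings is not given here.

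**Figure D1:**
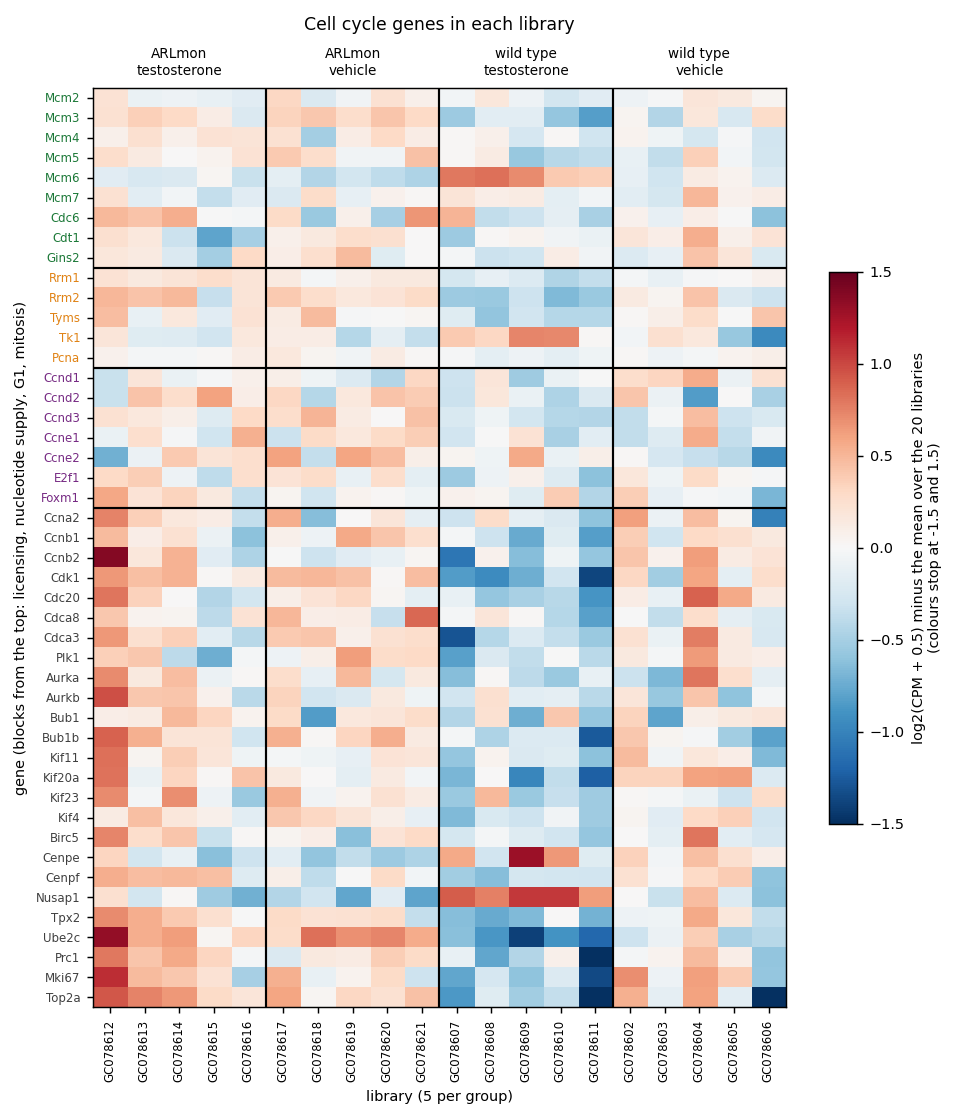
Colour gives log2(CPM + 0.5) minus the gene's mean over the 20 libraries, for 46 genes (rows, in blocks from the top: licensing, nucleotide supply, G1 and mitosis) and 20 libraries (columns, 5 per group). Most mitosis genes are blue in the 5 wild type testosterone libraries, whereas Mcm6 and Nusap1 are red there, and ARLmon testosterone library GC078612 is red for most mitosis genes.

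Mcm6 was the licensing gene that changed with testosterone. It encodes a subunit of the ring-shaped replicative helicase and lies on chr1:128331590-128359664, minus strand, in GENCODE M21 on GRCm38, with no exon shared with another gene. Its level was 17.3, 18.5, 18.9, 19.5 and 22.4 CPM in the ARLmon testosterone libraries and 15.8, 15.9985, 16.7, 18.1 and 19.9 CPM in the ARLmon vehicle libraries. Wild type testosterone libraries held 28.3, 29.1, 36.3, 38.2 and 39.3 CPM, and wild type vehicle libraries 17.8, 19.01, 20.1, 22.8 and 23.9 CPM. All 5 wild type testosterone libraries thus lay above the other 15, whereas the ARLmon groups overlapped. The rise in wild type was 0.72 ± 0.11 (log2, SE here and below; edgeR adjusted p = 0.000104). In ARLmon the difference was 0.16 ± 0.11, with a 95% interval from -0.08 to 0.40, and the responses of the genotypes differed by -0.56 ± 0.16 (edgeR adjusted p = 0.0481).

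That test of the difference sat close to the threshold. Its adjusted p was 0.163 when library size alone scaled the counts, and it also missed 0.05 with limma-voom, without a filter, on the deposited log2 table (0.233) and without any 1 of 13 libraries (up to 0.101 without GC078617). Under testosterone Mcm6 was lower in ARLmon than in wild type by 0.82 ± 0.11 (log2; edgeR adjusted p = 1.06e-05). Under vehicle the genotypes differed by -0.27, which did not pass (edgeR adjusted p = 0.215).

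The other helicase subunit genes did not rise with Mcm6. In wild type, the 8 other licensing genes had log2 differences between -0.47 (Mcm3) and 0.03 (Mcm4), and none of them passed. Mcm7 averaged 18.7 ± 2.98 CPM in ARLmon testosterone, 20.02 ± 2.75 in ARLmon vehicle, 20.6 ± 1.99 in wild type testosterone and 20.9 ± 4.52 in wild type vehicle libraries (SD, n = 5 in every group). Mcm2 averaged 13.4 ± 1.57 CPM in ARLmon testosterone, 14.7 ± 2.20 in ARLmon vehicle, 13.1 ± 1.60 in wild type testosterone and 14.4 ± 1.15 in wild type vehicle libraries. Because the subunits form a ring of equal parts, Mcm6 was also set against the mean of the 5 other subunits per kilobase. That ratio ran from 1.54 to 2.15 in ARLmon testosterone, 1.30 to 1.66 in ARLmon vehicle, 3.07 to 3.56 in wild type testosterone and 1.74 to 2.06 in wild type vehicle libraries. The wild type testosterone ratios stood above all others. Mcm4 and Mcm7 have processed pseudogenes that match 51.9% and 72.8% of their transcripts, at 91.1% and 97.7% identity. Their levels in the ratio could therefore be affected by how such reads were assigned.

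**Figure D2:**
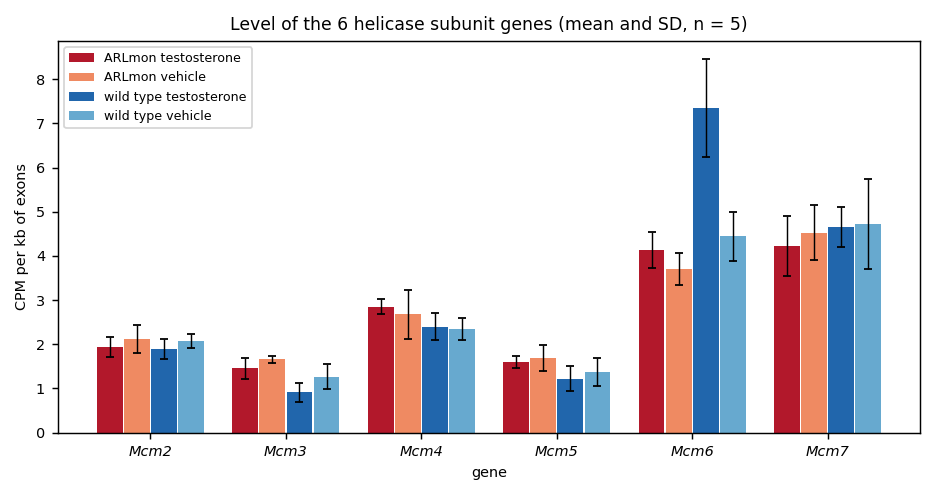
Bars give the mean level (CPM per kb of exons) and error bars the SD of the 6 helicase subunit genes in the 4 groups of 5 libraries. Mcm6 reached 7.34 CPM per kb in wild type testosterone libraries, against 4.44 in wild type vehicle libraries, while the wild type bars of Mcm2, Mcm4 and Mcm7 lie close together.

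Mcm3 (chr1:20802968-20820312, minus strand), another subunit, behaved differently from Mcm6. Its level was 4.05, 5.22, 5.69, 5.99 and 6.27 CPM in ARLmon testosterone libraries, against 2.48, 3.03, 3.13, 4.23 and 4.24 CPM in wild type testosterone libraries. Vehicle libraries held 5.85 to 6.54 CPM in ARLmon and 3.39 to 5.92 CPM in wild type. Under testosterone it was higher in ARLmon by 0.68 ± 0.18 (edgeR adjusted p = 0.0065). Its testosterone difference in wild type was -0.47, which did not pass (edgeR adjusted p = 0.0839). Over the 9 licensing genes the medians were -0.15 for testosterone in wild type and 0.12 for ARLmon against wild type under testosterone, both near the all-gene medians of -0.03 and 0.04.

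Of 41 further replication genes, 40 were tested. In wild type 3 rose and 3 fell with testosterone, a share of 15% that is near the 15.7% of all tested genes, and a pair of the risers are helicase partners. Mcm10, which helps to activate the helicase, averaged 3.87 CPM in ARLmon testosterone, 3.20 in ARLmon vehicle, 8.94 in wild type testosterone and 3.59 in wild type vehicle libraries (1.29 ± 0.18 in wild type; edgeR adjusted p = 2.26e-05). Cdc45, which joins Mcm2 to Mcm7 and GINS in the active helicase, averaged 1.57 CPM in ARLmon testosterone, 2.07 in ARLmon vehicle, 3.45 in wild type testosterone and 1.65 in wild type vehicle libraries (1.03 ± 0.18 in wild type; edgeR adjusted p = 0.000391). Pold1, the catalytic subunit of DNA polymerase delta, fell by 0.64 (edgeR adjusted p = 0.0188). Between genotypes under testosterone 7 were higher and 5 lower in ARLmon, a share of 30% that is near the 31.1% of all tested genes, with Mcm10 at -1.21 and Cdc45 at -1.14 (edgeR adjusted p = 2.82e-05 and 9.34e-05 in that order). Mcm10 and Cdc45 were also the 2 genes of the list called in the interaction.

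Genes of nucleotide supply split. Rrm1, the large subunit of ribonucleotide reductase, had 20.6, 21.2, 21.2, 21.5 and 22.3 CPM in ARLmon testosterone and 18.1, 19.5, 20.3, 20.5 and 20.6 CPM in ARLmon vehicle libraries. It had 13.4, 14.4, 15.4, 15.9 and 16.9 CPM in wild type testosterone and 17.1, 18.2, 18.3, 18.5 and 19.4 CPM in wild type vehicle libraries. The wild type testosterone libraries lay below all others. The fall in wild type was small, -0.27 ± 0.08 (edgeR adjusted p = 0.0242; 0.0866 in the 10 wild type libraries alone and up to 0.0895 without 1 library, GC078610), and ARLmon exceeded wild type under testosterone by 0.50 ± 0.08 (edgeR adjusted p = 6.88e-05).

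Rrm2, the small subunit, which is made mainly in S phase, averaged 6.44 ± 1.496 CPM in ARLmon testosterone, 6.35 ± 0.441 in ARLmon vehicle, 3.47 ± 0.377 in wild type testosterone and 5.37 ± 1.22 in wild type vehicle libraries. It fell by 0.64 ± 0.18 with testosterone in wild type (edgeR adjusted p = 0.0182; 0.0592 without GC078604 and 0.0573 without GC078610) and was higher in ARLmon under testosterone by 0.89 ± 0.18 (edgeR adjusted p = 0.000827). Tyms, which makes thymidylate, had 13.99, 14.6, 17.7, 18.4 and 21.9 CPM in ARLmon testosterone, 15.7, 15.8, 16.1, 17.2 and 22.1 CPM in ARLmon vehicle, 10.3, 11.6, 11.6, 12.9 and 13.9 CPM in wild type testosterone and 15.7, 15.9, 16.8, 19.2 and 21.2 CPM in wild type vehicle libraries. Its highest wild type testosterone library was thus just below the lowest library of any other group. Tyms fell by 0.56 ± 0.14 in wild type (edgeR adjusted p = 0.00672), and ARLmon exceeded wild type by 0.52 ± 0.14 under testosterone (edgeR adjusted p = 0.00619).

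Tk1, thymidine kinase of the salvage pathway (chr11:117815526-117826092, minus strand), went the other way from the 3 falling genes. It had 4.81, 5.16, 5.21, 6.73 and 6.85 CPM in ARLmon testosterone, 4.30, 4.56, 5.39, 6.46 and 6.502 CPM in ARLmon vehicle, 6.04, 7.496, 8.02, 10.1 and 10.2 CPM in wild type testosterone and 2.85, 3.85, 5.76, 6.72 and 7.15 CPM in wild type vehicle libraries. The wild type groups overlapped, and the rise of 0.65 ± 0.22 was marginal (edgeR adjusted p = 0.044). It passed the threshold no longer under 4 of 9 other settings and without any 1 of 10 libraries (adjusted p up to 0.129 without GC078610). Reads may also come from Afmid on the opposite strand, which shares 1.60% of the exonic bases and rose by 0.90 in wild type (edgeR adjusted p = 0.0005). Pcna stayed between 19.8 and 24.6 CPM in all 20 libraries and was called in no comparison, with a difference of -0.11 in wild type (edgeR adjusted p = 0.36). With library size as the only scaling, or with limma on the deposited log2 table, it was called lower with testosterone in wild type and higher in ARLmon under testosterone.

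Among the 7 G1 genes none was called for testosterone in wild type by edgeR, limma-voom or DESeq2, and 1 had an unadjusted p under 0.05. That gene was Ccnd1, cyclin D1, which ranged from 169 to 242 CPM in ARLmon testosterone, 157 to 265 in ARLmon vehicle, 147 to 242 in wild type testosterone and 201 to 314 in wild type vehicle libraries (-0.41 in wild type; edgeR adjusted p = 0.0672). With library size as the only scaling 2 of the 7 were called lower. That scaling also lowered the median of all tested genes. Its share of all tested genes called is not given here, so this count does not set the G1 genes apart. Ccnd3, cyclin D3, had 77.1, 94.2, 99.1, 104 and 109 CPM in ARLmon testosterone libraries, against 65.2, 65.7, 73.2, 75.8 and 84.4 CPM in wild type testosterone libraries. It was higher in ARLmon by 0.41 ± 0.14 (edgeR adjusted p = 0.0349), a call lost without any 1 of 9 libraries (adjusted p up to 0.085). Ccnd2, cyclin D2, ranged from 9.70 to 19.1 CPM in ARLmon testosterone and from 8.86 to 14.02 CPM in wild type testosterone libraries and was not called. The cyclin E genes, E2f1 and Foxm1 were called in no comparison. Ccne2 had the widest difference under vehicle, 1.00 higher in ARLmon, which did not pass (edgeR adjusted p = 0.0901).

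For testosterone in wild type 6 of 25 mitosis genes fell (Kif20a, Cdk1, Ube2c, Cdc20, Cdca3 and Mki67), 1 rose (Nusap1) and 18 were not called. That is 28% called, against 15.7% of all tested genes (9.36% higher and 6.36% lower), and 23 of the 25 differences were negative. The median was -0.68, against -0.03 over all tested genes. In ARLmon the 25 differences lay between -0.40 (Ccnb1) and 0.64 (Ccnb2) with a median of 0.24, and 18 were positive. Summed over the 25 genes, levels were 52.0 to 112 CPM per library in ARLmon testosterone, 61.0 to 78.0 in ARLmon vehicle, 33.7 to 57.6 in wild type testosterone and 48.4 to 88.9 in wild type vehicle libraries. The sums overlapped between the wild type groups, and the highest wild type testosterone sum stood below every ARLmon vehicle sum.

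Single libraries carried part of this spread. Wild type testosterone library GC078611 was lowest of its group for 14 of the 25 genes, and wild type vehicle library GC078604 was highest of its group for 15. Without GC078611 or without GC078604, 4 mitosis genes fell in place of 6, with medians of -0.59 and -0.57. The share of all tested genes called in those fits is not given here. Omitting a library also changes what can be called for any gene. ARLmon testosterone library GC078612 was highest of its group for 22 of the 25 genes, with a sum of 112 CPM, against 82.97 CPM in the next library of the group.

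Kif20a, a kinesin of the central spindle (chr18:34624613-34633277, plus strand), had the larger of the 2 called differences between the responses of the genotypes. It had 1.87, 2.08, 2.69, 2.94 and 4.00 CPM in ARLmon testosterone and 1.81, 1.98, 2.05, 2.30 and 2.34 CPM in ARLmon vehicle libraries. It had 0.594, 0.796, 1.09, 1.48 and 2.06 CPM in wild type testosterone and 1.71, 2.72, 2.73, 3.38 and 3.40 CPM in wild type vehicle libraries. One wild type testosterone library overlapped the vehicle group, and the ARLmon groups overlapped. Kif20a fell by 1.23 ± 0.28 in wild type (edgeR adjusted p = 0.00365), whereas the ARLmon difference was 0.36 ± 0.25 with a 95% interval from -0.17 to 0.88. The responses differed by 1.59 ± 0.38 (edgeR adjusted p = 0.0137), a call that held under all 8 other settings and without any 1 of the 20 libraries. Kif20a shares 29.3% of its exonic bases with Cdc23 on the opposite strand, which averaged 35.8 CPM in ARLmon testosterone, 34.8 in ARLmon vehicle, 31.9 in wild type testosterone and 34.8 in wild type vehicle libraries and differed by -0.12 in wild type (edgeR adjusted p = 0.454).

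Cdk1, the kinase that drives entry into mitosis (chr10:69335146-69352938, minus strand), had 2.13, 2.35, 3.05, 3.22 and 3.56 CPM in ARLmon testosterone and 2.12, 3.02, 3.08, 3.12 and 3.17 CPM in ARLmon vehicle libraries. It had 0.495, 0.846, 0.951, 1.06 and 1.62 CPM in wild type testosterone and 1.31, 1.84, 2.62, 2.73 and 3.42 CPM in wild type vehicle libraries. The wild type testosterone libraries lay below all 10 ARLmon libraries, and 1 of them overlapped the wild type vehicle group. The fall was 1.21 ± 0.29 in wild type (edgeR adjusted p = 0.00654), the ARLmon difference was -0.03 (95% interval -0.55 to 0.49), and under testosterone ARLmon exceeded wild type by 1.47 ± 0.29 (edgeR adjusted p = 0.00066). The difference of the responses, 1.18, did not pass (edgeR adjusted p = 0.0914).

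Ube2c, the ubiquitin-conjugating enzyme of the APC/C (chr2:164769898-164778822, plus strand), differed between genotypes under both treatments. Its level was 1.57, 2.03, 2.46, 2.62 and 4.54 CPM in ARLmon testosterone, 1.95, 2.47, 2.76, 2.87 and 3.08 CPM in ARLmon vehicle, 0.265, 0.396, 0.590, 0.605 and 0.815 CPM in wild type testosterone and 0.948, 1.02, 1.13, 1.41 and 2.12 CPM in wild type vehicle libraries. Wild type testosterone libraries lay below every other library. It fell by 1.32 ± 0.36 in wild type (edgeR adjusted p = 0.0135) and was higher in ARLmon by 2.27 ± 0.34 under testosterone (edgeR adjusted p = 3.27e-05) and by 0.96 ± 0.27 under vehicle (edgeR adjusted p = 0.0474). The vehicle call was lost without any 1 of 15 libraries (adjusted p up to 0.156 without GC078605), and the difference of the responses, 1.30, did not pass (edgeR adjusted p = 0.11). Ube2c shares 22.8% of its exonic bases with Tnnc2 on the opposite strand.

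Mki67, which encodes the Ki-67 protein that coats mitotic chromosomes and marks cycling cells (chr7:135689784-135716361, minus strand), had 4.70, 8.11, 9.28, 9.78 and 15.4 CPM in ARLmon testosterone and 5.44, 6.33, 7.12, 8.49 and 10.2 CPM in ARLmon vehicle libraries. It had 2.38, 3.805, 4.38, 5.68 and 5.90 CPM in wild type testosterone and 4.44, 6.53, 9.12, 10.8 and 11.4 CPM in wild type vehicle libraries. Groups overlapped in each pair. The fall of 0.94 ± 0.30 in wild type passed (edgeR adjusted p = 0.0362) but was lost with limma-voom (adjusted p = 0.0519) and without any 1 of 6 libraries (up to 0.0987 without GC078611). Under testosterone Mki67 was higher in ARLmon by 1.075 ± 0.30 (edgeR adjusted p = 0.01).

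Top2a, the topoisomerase that untangles sister chromatids (chr11:98992943-99024189, minus strand), had 5.29, 5.73, 7.48, 8.03 and 9.25 CPM in ARLmon testosterone and 4.71 to 7.16 CPM in ARLmon vehicle libraries. It had 0.990, 2.31, 3.05, 3.47 and 3.99 CPM in wild type testosterone and 1.25, 4.06, 4.12, 6.89 and 7.25 CPM in wild type vehicle libraries. The testosterone groups did not overlap between genotypes, and Top2a was higher in ARLmon by 1.36 ± 0.34 (edgeR adjusted p = 0.00434). Within wild type the difference of -0.81 ± 0.34 did not pass (edgeR adjusted p = 0.117). Kif23, a kinesin of cytokinesis and by CPM among the 3 highest mitosis genes, averaged 9.25 ± 3.59 CPM in ARLmon testosterone, 8.99 ± 1.55 in ARLmon vehicle, 6.55 ± 2.58 in wild type testosterone and 7.71 ± 1.22 in wild type vehicle libraries and was called in no comparison.

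**Figure D3:**
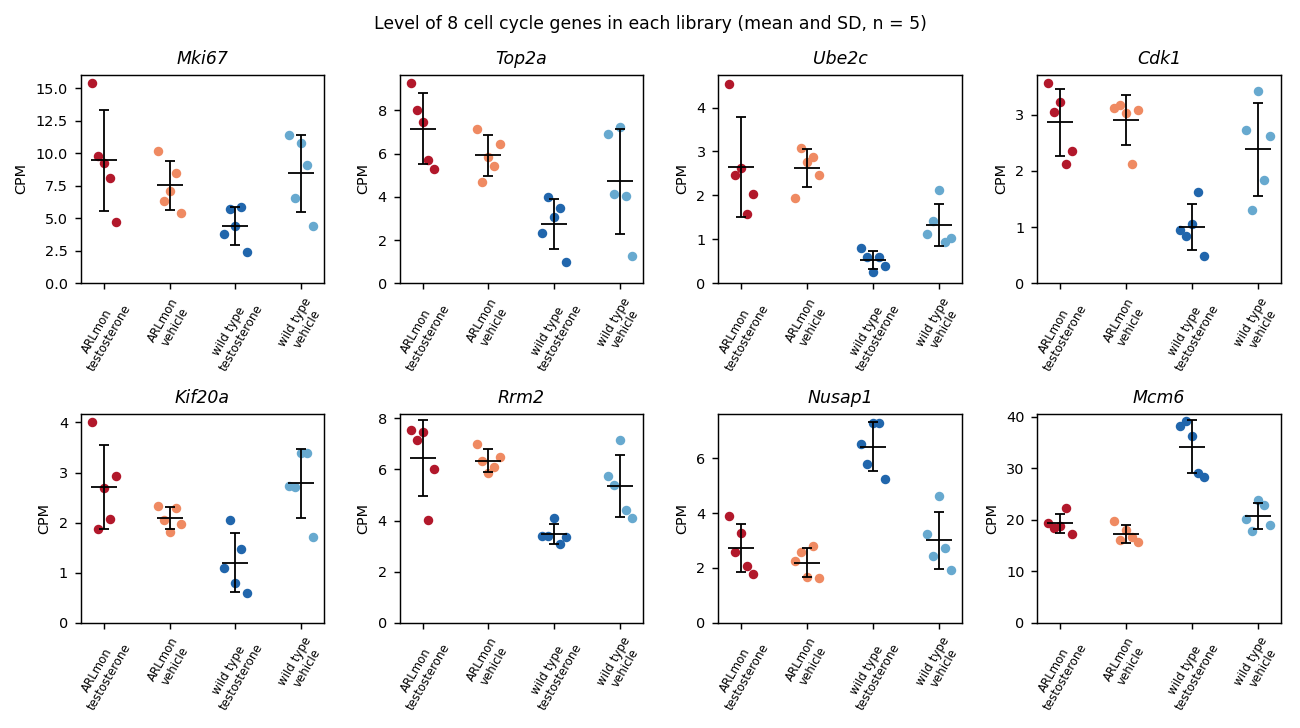
Points give the CPM of 8 genes in each library, and bars the mean and SD of the 5 libraries per group. Mki67, Top2a, Ube2c, Cdk1, Kif20a and Rrm2 are lowest in the wild type testosterone group, whereas Nusap1 and Mcm6 are highest there, with means of 6.43 and 34.2 CPM.

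Nusap1 and Cenpe were the mitosis genes lower in ARLmon under testosterone. Nusap1, which bundles microtubules of the spindle (chr2:119618298-119651244, plus strand), had 1.76, 2.08, 2.58, 3.29 and 3.91 CPM in ARLmon testosterone, 1.65, 1.68, 2.26, 2.57 and 2.81 CPM in ARLmon vehicle, 5.25, 5.80, 6.52, 7.29 and 7.31 CPM in wild type testosterone and 1.94, 2.45, 2.74, 3.24 and 4.65 CPM in wild type vehicle libraries. All wild type testosterone libraries lay above the other 15. Nusap1 rose by 1.07 ± 0.23 in wild type (edgeR adjusted p = 0.00246) and was lower in ARLmon under testosterone by 1.26 ± 0.24 (log2; edgeR adjusted p = 0.000384). Its difference in ARLmon was 0.30 (95% interval -0.22 to 0.81), and the difference of the responses, -0.77, did not pass (edgeR adjusted p = 0.242). Oip5 on the opposite strand shares 4.24% of the exonic bases of Nusap1 and was scarcer, with 0.456 CPM in ARLmon testosterone, 0.337 in ARLmon vehicle, 0.999 in wild type testosterone and 0.572 in wild type vehicle libraries. Its differences had the same directions as those of Nusap1. They were 0.77 with testosterone in wild type (edgeR adjusted p = 0.124) and -1.23 in ARLmon against wild type under testosterone (edgeR adjusted p = 0.0126).

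Cenpe, a kinesin of the kinetochore (chr3:135212537-135273611, plus strand), had 1.32, 1.76, 1.82, 2.09 and 3.02 CPM in ARLmon testosterone and 1.37, 1.43, 1.54, 1.68 and 2.02 CPM in ARLmon vehicle libraries. It had 1.81, 1.98, 3.67, 3.91 and 6.36 CPM in wild type testosterone and 2.25, 2.50, 2.82, 3.09 and 3.34 CPM in wild type vehicle libraries. It was lower in ARLmon under testosterone by 0.84 ± 0.28 (log2; edgeR adjusted p = 0.0284). That call was lost without any 1 of 6 libraries (adjusted p up to 0.129 without GC078609). It was kept under 6 of 9 other settings. The call was lost on the deposited log2 table (limma adjusted p = 0.179), with library size as the only scaling and in the pair of groups alone. Under vehicle all ARLmon libraries lay below all wild type libraries, but the difference of -0.81 did not pass (edgeR adjusted p = 0.109).

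Between genotypes under testosterone 13 of the 25 mitosis genes were higher in ARLmon and 2, Nusap1 and Cenpe, were lower, which is 60% called, against 31.1% of all tested genes (15.6% higher and 15.5% lower). Of the 25 differences 23 were positive. The median was 0.78, against 0.04 over all tested genes. Beside those already given, Tpx2, which builds the spindle and activates Aurora A, averaged 2.49 ± 0.555 CPM in ARLmon and 1.08 ± 0.390 CPM in wild type testosterone libraries (log2 1.14 ± 0.27; edgeR adjusted p = 0.003). Prc1, which crosslinks microtubules of the central spindle, averaged 2.62 ± 0.632 CPM in ARLmon and 1.18 ± 0.640 CPM in wild type testosterone libraries (1.12 ± 0.32; edgeR adjusted p = 0.0116). Cenpf, a large kinetochore protein, averaged 2.95 ± 0.631 CPM in ARLmon and 1.53 ± 0.235 CPM in wild type testosterone libraries, with no overlap between the groups (0.92 ± 0.23; edgeR adjusted p = 0.00493).

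The other 5 of the 13 were weaker. Cdca3 (mitotic entry), Kif11 (the kinesin that pushes spindle poles apart), Bub1b (spindle checkpoint), Ccnb2 (cyclin B2) and Cdc20 (activator of the APC/C) were higher in ARLmon by 0.79, 0.72, 0.89, 1.00 and 0.78, with edgeR adjusted p = 0.0233, 0.0357, 0.0361, 0.0389 and 0.0499 in that order. Of 9 other settings, Cdc20 lost this call under 5, Ccnb2 and Kif11 under 2 each, and Bub1b and Cdca3 under limma-voom. Cdc20 passed in 4 of the 20 fits that leave out 1 library, Kif11 in 14, Ccnb2 in 15, Bub1b in 16 and Cdca3 in 17. All 5 calls were lost without library GC078612, which left 8 mitosis genes higher and 2 lower with a median of 0.64. The share of all tested genes called in that fit is not given here. In wild type, Cdc20 fell to 1.47 ± 0.381 CPM with testosterone, against 3.03 ± 1.03 CPM with vehicle (-1.07 ± 0.29; edgeR adjusted p = 0.0136). Cdca3 fell to 2.45 ± 0.744 CPM with testosterone, against 4.37 ± 1.43 CPM with vehicle (-0.84 ± 0.25; edgeR adjusted p = 0.0264), and lost its call without GC078604, GC078607 or GC078611 (adjusted p up to 0.0878). Cdc20 has a processed pseudogene, Gm7856, that matches 84.3% of its transcript at 93.7% identity and is counted as a gene of its own, so its reads could be split.

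**Figure D4:**
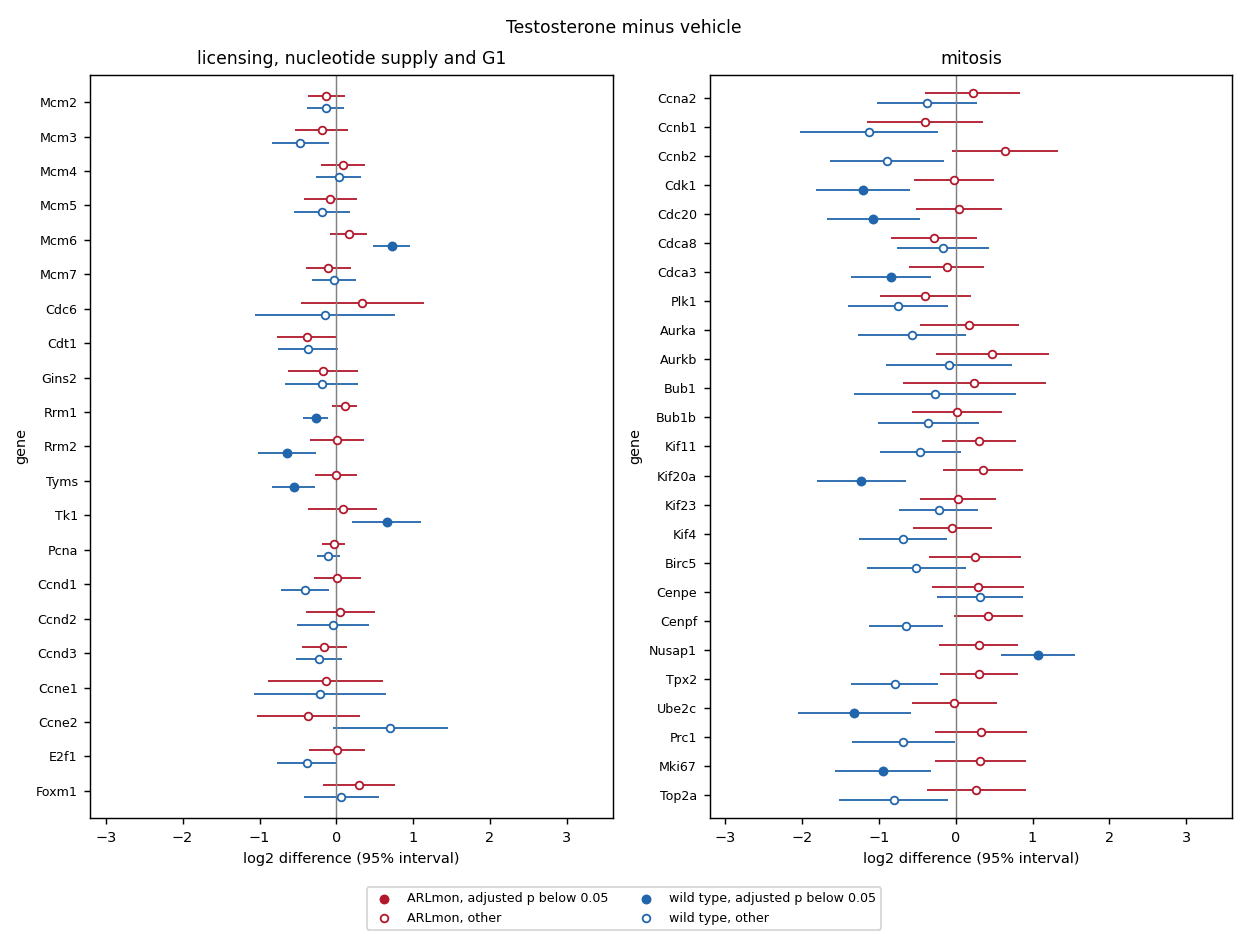
Points give the log2 difference, testosterone minus vehicle, and lines its 95% interval, for the 46 genes in ARLmon (red) and wild type (blue). Filled points passed the edgeR test, which 12 genes did in wild type and 0 did in ARLmon, where no mitosis gene lies outside -0.40 to 0.64.

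**Figure D5:**
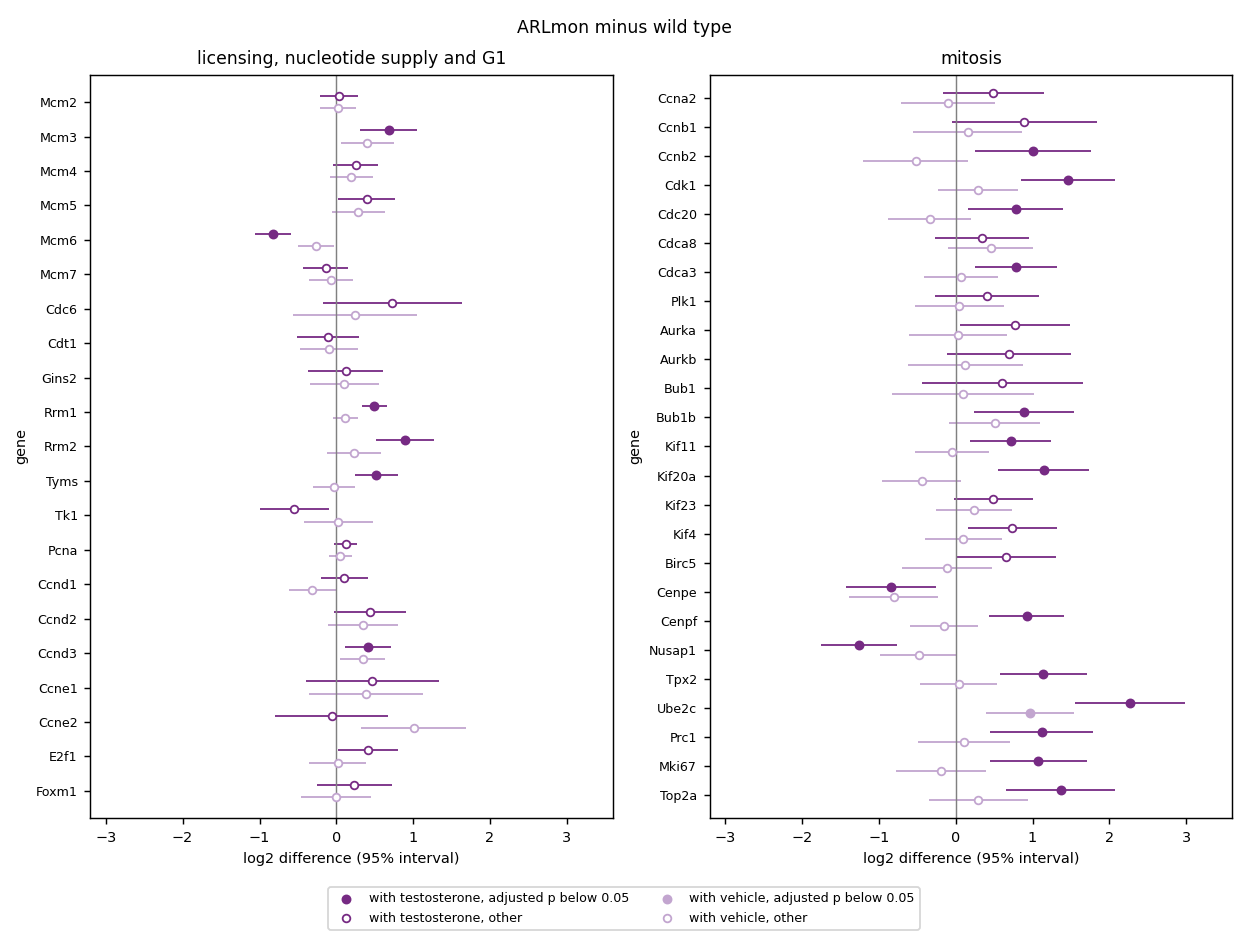
Points give the log2 difference, ARLmon minus wild type, and lines its 95% interval, with testosterone (dark) and with vehicle (pale). With testosterone 21 genes passed the edgeR test (filled), Mcm6, Nusap1 and Cenpe to the left of 0 and 18 to the right, and with vehicle only Ube2c did.

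Overlap between libraries was also counted, as a description without a test. In wild type the testosterone libraries lay wholly above the vehicle libraries for 2 of the 46 genes (Mcm6 and Nusap1), against 8.34% of all tested genes, and wholly below for 5 (Ube2c, Ccnb2, Tyms, Rrm1 and Cdt1), against 4.21%. In ARLmon neither occurred for any of the 46, against 0.392% above and 0.386% below over all tested genes. ARLmon testosterone libraries lay wholly above wild type testosterone libraries for 6 genes (Ube2c, Cdk1, Top2a, Cenpf, Rrm1 and Tyms), against 9.44%, and wholly below for 2 (Nusap1 and Mcm6), against 13.1%. Under vehicle 0 genes lay wholly above, against 2.18%, and 2 (Cenpe and Ccnb2) wholly below, against 2.39%. Ccnb2, Cdt1 and, under vehicle, Cenpe did not pass the edgeR test where their groups did not overlap.

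Neighbouring lists of the pathway, tested in the same fit, were described by their counts. Of 49 further mitotic genes, 44 were tested: 6 fell and 0 rose in wild type, and 16 were higher and 0 lower in ARLmon under testosterone, with medians of -0.41 and 0.59. Those counts are 13.6% called, against 15.7% of all tested genes, in wild type and 36.4%, against 31.1%, between genotypes. Under vehicle 2 (Spc25 and Pttg1) were higher in ARLmon, or 4.55%, against 4.37%. Spc25, a subunit of the Ndc80 kinetochore complex, averaged 37.4 CPM in ARLmon testosterone, 43.6 in ARLmon vehicle, 14.3 in wild type testosterone and 27.4 in wild type vehicle libraries (-0.94 ± 0.17 in wild type; edgeR adjusted p = 0.000379). Its partner Spc24 averaged 1.197 CPM with testosterone and 2.34 CPM with vehicle in wild type (-0.99 ± 0.24; edgeR adjusted p = 0.00675). Cdkn3, a phosphatase of cyclin-dependent kinases, averaged 0.133 CPM with testosterone and 0.675 CPM with vehicle in wild type (-2.265 ± 0.58; edgeR adjusted p = 0.00919). At that level the size of its fall rests on very few reads. Cdc25b, a phosphatase that activates Cdk1, was higher in ARLmon by 0.62 under testosterone (edgeR adjusted p = 0.000917).

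Of 14 tested E2F and DREAM genes 3 rose in wild type with testosterone, E2f5 by 0.34, E2f3 by 0.58 and Rbbp4 by 0.26 (edgeR adjusted p = 0.00614, 0.00709 and 0.0104), and the same 3 were lower in ARLmon under testosterone. That is 21.4% called in both comparisons, against 15.7% and 31.1% of all tested genes. E2f5 was also lower in ARLmon under vehicle. E2f5 and Rbbp4 belong to the repressing DREAM complex, and E2f3 is mainly an activator. Of 19 tested inhibitors and p53 targets 1 rose and 1 fell in wild type: Gadd45a, a stress-induced growth arrest gene, averaged 46.9 CPM with testosterone and 27.1 CPM with vehicle (0.80; edgeR adjusted p = 0.011), and Cdkn1c, which encodes the inhibitor p57, averaged 13.2 CPM with testosterone and 19.8 CPM with vehicle (-0.57; edgeR adjusted p = 0.00782). These are 10.5% of the list, against 15.7%, and under testosterone 3 were higher and 1 lower in ARLmon (21.1%, against 31.1%). Of 11 G1 kinases and other cyclins 2 rose in wild type, Ccnc by 0.58 and Cdk8 by 0.33 (edgeR adjusted p = 0.0127 and 0.0191), which are both parts of the Mediator kinase module, and 4 were lower in ARLmon under testosterone (18.2% and 36.4% called, against 15.7% and 31.1%). In ARLmon edgeR called 0 genes of every one of these lists for testosterone, as over all 15549 genes, 813 of which had an unadjusted p under 0.05.

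Markers of other cell types were counted in the same comparisons, in which 15.7% of all tested genes were called in wild type and 31.1% between genotypes under testosterone. All 5 podocyte markers fell with testosterone in wild type (median -0.54) and were higher in ARLmon under testosterone (0.80), with summed levels of 507 to 623 CPM in ARLmon testosterone, 540 to 665 in ARLmon vehicle, 292 to 363 in wild type testosterone and 380 to 573 in wild type vehicle libraries. Of 8 markers of injured tubules 1, Spp1, fell in wild type (12.5%) and 3 (Spp1, Sox9 and Vcam1) were higher in ARLmon under testosterone (37.5%), both shares near those of all tested genes. All 8 differences were negative in wild type, with a median of -0.94, against -0.03 over all tested genes. Between genotypes under testosterone 7 of 8 were positive, with a median of 1.79, against 0.04. The summed levels of the 8 markers were 2207 to 7328 CPM in ARLmon testosterone, 2593 to 3169 in ARLmon vehicle, 749 to 1155 in wild type testosterone and 1623 to 3194 in wild type vehicle libraries. The highest of these sums, 7328 CPM, was in GC078612, the library with the highest mitosis sum, which also held the highest macrophage, lymphocyte and fibroblast sums of the ARLmon testosterone group (202, 15.03 and 664 CPM), and no defining marker of this list was at 0 in a whole group. Endothelial sums were 379 to 511 CPM in ARLmon testosterone, 406 to 475 in ARLmon vehicle, 313 to 338 in wild type testosterone and 300 to 478 in wild type vehicle libraries, and 1 of 6 markers fell in wild type (16.7%) while 4 of 6 were higher in ARLmon under testosterone (66.7%).

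Markers of the thick limb and distal tubule had summed levels of 4646 to 6461 CPM in ARLmon testosterone, 5051 to 6703 in ARLmon vehicle, 3474 to 4899 in wild type testosterone and 4453 to 6031 in wild type vehicle libraries. EdgeR called 0 of the 5 in wild type (2 had an unadjusted p under 0.05), where all 5 differences were negative (median -0.31). Under testosterone 3 of 5 (Slc12a3, Calb1 and Pvalb) were higher in ARLmon (60%, against 31.1% of all tested genes), with all 5 differences positive (median 0.73). Under vehicle 2 (Slc12a3 and Calb1) were higher (40%, against 4.37% of all tested genes). Collecting duct markers summed to 399.9 to 752 CPM in ARLmon testosterone, 501 to 915 in ARLmon vehicle, 327 to 544 in wild type testosterone and 354 to 730.5 in wild type vehicle libraries. In wild type all 5 differences were negative (median -0.34) and 1, Fxyd4, fell (20%, against 15.7% of all tested genes). Under testosterone 2 of 5 (Scnn1g and Fxyd4) were higher in ARLmon (40%, against 31.1%), with a median of 0.50. Under vehicle 1, Slc4a1, was higher in ARLmon (20%, against 4.37%).

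Lymphocyte sums were low, at 5.93 to 15.03 CPM in ARLmon testosterone, 8.64 to 14.2 in ARLmon vehicle, 3.57 to 8.88 in wild type testosterone and 4.06 to 9.09 in wild type vehicle libraries over 9 markers. Of the 8 tested, 0 were called by edgeR in wild type (0 had an unadjusted p under 0.05). Under testosterone 1, Cd8a, was higher in ARLmon (12.5%, against 31.1% of all tested genes), with 7 of 8 differences positive (median 0.73). Macrophage sums over 6 markers ran from 117 to 202 CPM in ARLmon testosterone, 132 to 163 in ARLmon vehicle, 117 to 165 in wild type testosterone and 114 to 163 in wild type vehicle libraries. A further marker, Adgre1, was not in the joined table. In wild type 1 of 6, Csf1r, rose with testosterone (16.7%, against 15.7% of all tested genes), while 5 differences were negative (median -0.46). Under testosterone Cd68, C1qb and Cd14 were higher and Csf1r lower in ARLmon (66.7%, against 31.1%), with 5 differences positive (median 0.61). Of fibroblast and mural markers 2 of 7 fell in wild type (28.6%, against 15.7%) and 3 of 7 were higher in ARLmon under testosterone (42.9%, against 31.1%). All 7 differences were negative in wild type (median -0.21) and positive between genotypes under testosterone (median 0.64). Proximal tubule sums, the main mass of the kidney, overlapped across all 4 groups, at 12413 to 14462 CPM in ARLmon testosterone, 12131 to 14515 in ARLmon vehicle, 12333 to 15137 in wild type testosterone and 8876 to 16533 in wild type vehicle libraries. Single markers of the 8 differed. In wild type Slc22a6 rose and Slc5a2 fell (25%, against 15.7%). In ARLmon under testosterone Slc22a6 was lower and Miox higher (25%, against 31.1%), and under vehicle Slc22a6 and Aqp1 were lower (25%, against 4.37%). The part of these cell types in the mitosis results was not tested.

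ARLmon mice given testosterone were also set against wild type mice given vehicle, which asks whether the receptor mutant with hormone resembles the wild type without it. EdgeR called 0 of the 46 genes, against 3.03% of all tested genes (1.25% higher and 1.78% lower). Unadjusted, 3 of the 46 had an edgeR p under 0.05, against 2343 of all 15549 tested genes. Limma-voom called 0 of the 46 and DESeq2 called 1, Ube2c. The median over the 46 genes was 0.18, against 0.01 over all tested genes. Ube2c differed by 0.95 (edgeR adjusted p = 0.0654), Rrm1 by 0.23 (edgeR adjusted p = 0.139), Mki67 by 0.13, Kif20a by -0.09 and Mcm6 by -0.11. A difference that misses the threshold does not show that the groups are alike.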

How the data were processed

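Poly(A) RNA was sequenced from 20 mouse kidney libraries after a stranded mRNA preparation, per the labels' protocols. The submitters' processing notes list FastQC 0.11.7, HISAT2, SAMtools 1.5, HTSeq (as 2.7.14), DESeq2 and mm10, and the settings and annotation were not given in the sources used here. The authors deposited raw counts per gene in 4 tables of 10 libraries each, and a table of log2 values for 20550 genes whose normalization was not stated. Shared libraries agreed in all 455975 values, so the tables were joined, and 12045 values in 1713 genes absent from a table were set to 0. All sample columns were used.

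Counts were fitted in R 4.3.3 with edgeR 4.0.16 (filterByExpr, minimum count 10, TMM factors, quasi-likelihood test, 4 group means, 16 residual degrees of freedom). SE is the log2 difference over the square root of F. Other settings tried were RLE (median-ratio) factors, scaling by library size alone, no filter, at least 1 CPM in 5 libraries, limma-voom and limma on the log2 table (limma 3.58.1), DESeq2 1.42.0, a pair of groups alone, and omitted libraries.

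The members, the lists and the comparisons were chosen with earlier results of these data known. Named genes are every member called in any of the 6 comparisons, the 3 most abundant members of each role, Mki67, Top2a and the D-type cyclins, and up to 3 genes of each wider list with the smallest p. A result that this rule names is not reported here. Where a count of 5 or fewer was printed, its genes were named after their values were seen. Positions are from GENCODE M21 on GRCm38, and promoters from RefSeq on GRCm38.p6.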

Additional observations from a re-analysis of the deposited data

Results flagged for a closer look

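In 112 groups of 5 libraries (28 named genes in 4 groups), 7 groups held a library whose gap to the nearest other library exceeded 0.71 of the group's range, where chance gives about 5.6 such groups (5%). Cdk1 was 2.124 CPM in ARLmon vehicle library GC078620, against 3.024 CPM in the nearest library of its group. Tpx2 was 1.265 CPM in ARLmon vehicle library GC078621 (nearest 2.139 CPM) and 1.771 CPM in wild type testosterone library GC078610 (nearest 0.9512 CPM). Cenpf was 1.83 CPM in ARLmon testosterone library GC078616 (nearest 3.142 CPM), and Mcm2 was 16.19 CPM in ARLmon testosterone library GC078612 (nearest 13.09 CPM). Tyms was 22.07 CPM in ARLmon vehicle library GC078618 (nearest 17.21 CPM). Kif23 was 11.12 CPM in wild type testosterone library GC078608 (nearest 6.052 CPM).

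The testosterone responses of the genotypes differed, by the interaction term of the edgeR fit, for Kif20a and Mcm6. These are 4.35% of the 46 genes, near the 4.77% of all tested genes called in the interaction. Kif20a responded by 0.356 in ARLmon and by -1.231 in wild type (log2), a difference of 1.587. Mcm6 responded by 0.1603 in ARLmon and by 0.7174 in wild type, a difference of -0.5571. The Mcm6 call was kept under 4 of 8 other settings and in 7 of the 20 fits that leave out 1 library.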

How the results depend on the processing

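For testosterone in wild type, 12 genes were called (3 higher, 9 lower), 21 (2 and 19) with library size alone and 19 (2 and 17) on the deposited log2 table. Library size alone shifted the median of all genes to -0.18, against -0.03, and for ARLmon against wild type under testosterone to 0.28, against 0.04. In that comparison 21 genes were called, and 30 (28 higher, 2 lower) with library size alone or on the log2 table. Under vehicle the 1 call became 0 with RLE factors or without a filter, and 2 without GC078604 and GC078618, the libraries farthest out within their groups in earlier results. The 2 interaction calls (1 higher, 1 lower) became 10 (10 and 0) with library size alone, 5 (5 and 0) on the log2 table, 6 with DESeq2, and 1 without a filter or with limma-voom. ARLmon testosterone against wild type vehicle gave 0 calls, 2 with library size alone and 1 with DESeq2 or without those 2 libraries. With each library omitted in turn, calls ran from 9 to 14 for testosterone in wild type, 0 to 0 in ARLmon, 15 to 22 (15 without GC078612) between genotypes under testosterone, 0 to 2 under vehicle, 1 to 4 in the interaction, and 0 to 1 for ARLmon testosterone against wild type vehicle. Counts under other settings are given without the share of all tested genes called under the same setting. The cause of the changes between settings was not tested. Over 36 gene results and 1042 alternative values none reversed sign, 911 kept their call and 131 lost it, and 22 results kept it throughout. All 36 had passed the main test and every alternative reuses these libraries, so kept signs are not independent support. No paired analysis was possible because the columns carry library codes and no replicate number of the labels. Low read counts limit single mitosis genes.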
